A study of Mus musculus with 36 samples.

Results

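Messenger RNA of 9 genes that act in RNA processing was followed across 36 bulk RNA sequencing libraries of mouse hippocampus. The genes were Tra2a, Tra2b, Srsf5, Srsf7, Clk1, Clk4, Jmjd6, Nxf1 and Mettl3, 9 of the 50559 gene symbols in the count table, and all 9 passed the filter on low counts that kept 25382 genes. They were picked from a list of splicing, export and RNA methylation genes because some of them were lower in trained Tau mice. The comparison of trained Tau with trained WT mice therefore describes them and does not test them.

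The libraries came from female C57BL/6 mice aged 6 months, and the study asked how transgenes for amyloid precursor protein and tau, singly or combined, change hippocampal transcripts before and after spatial learning. APP mice were heterozygous for the human APP transgene with the Sw,Ind mutations (J9 line), Tau mice for human tau P301S (PS19 line), and APP/Tau mice carried both transgenes. All mice, the WT controls included, also carried Pvalb-Cre and RiboTag+/-, which tags ribosomes of parvalbumin interneurons. Only the input fraction was sequenced, which is RNA of the cleared lysate of both hippocampi and not of the tagged ribosomes. Naive mice (WT 6, APP 5, Tau 4 and APP/Tau 6 libraries) were handled on 3 days and stayed in the home cage. Trained mice (WT 5, APP 3, Tau 4 and APP/Tau 3) were handled likewise and swam 6 trials per day for 5 days in the Morris water maze, had a probe test 24 hours later and were killed 2 hours after it. Trained and naive mice thus differ in swimming as well as in learning. In the PS19 line the mouse prion promoter drives the transgene, and in the J9 line a PDGF-B promoter does.

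SR proteins and their relatives bind exonic RNA through an RNA recognition motif and recruit the spliceosome through a domain rich in arginine and serine. CLK kinases phosphorylate that domain in the nucleus, which frees SR proteins from nuclear speckles. Many genes of this machinery carry alternative exons or retained introns whose inclusion keeps the transcript in the nucleus or marks it for nonsense-mediated decay, and Clk1 is a known example of stored intron-retaining RNA. The proteins of the group act at successive steps. TRA2 proteins and SR proteins choose exons, JMJD6 hydroxylates lysines of splicing factors such as U2AF2, METTL3 methylates adenosines of the new mRNA, and NXF1 carries the mRNA through the nuclear pore.

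Library totals ran from 69.2 to 124.8 M counts (M for mega), with a median of 85.4 M, and the smallest count of any of the 9 genes in any library was 1011. Excitatory markers of the hippocampus were high in each group, with mean Slc17a7 at 1059 to 1305 CPM (counts per M of the TMM-scaled total). Prnp, the prion protein gene whose promoter drives the tau transgene, checked the Tau labels. It lay at 728 to 879 CPM in the 19 libraries not labelled Tau and at 1423 to 2142 CPM in 16 libraries labelled Tau, but at 846 CPM in the library labelled Tau trained replicate 4. That library goes against its label. It was kept there, and differences between trained Tau and another group are given with and without it. Correlations over the 36 libraries use no label and keep it. Pvalb, the parvalbumin gene, was also low there (2.76 CPM), as in WT naive replicate 3, APP/Tau naive replicates 1 and 6 and APP/Tau trained replicate 1. It stood at 2.59 to 3.28 CPM in these libraries and at 10.7 to 20.7 CPM in all others, every library of the APP groups included. What sets the low libraries apart was not tested.

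Promoters of the genes described at most length are printed from RefSeq (build GRCm38.p6), 250 bases before to 50 bases after the annotated start, 5′ to 3′ on the gene's own strand. An entry was found for 8 of the 9 genes, and Clk1 had none. Capitals mark matches, on either strand, to 7 motifs. These were the GC box GGGCGG, the box bound by the trimeric factor NF-Y, which reads CCAAT, the core bound by ETS proteins, which reads CCGGAA, and the TATA box TATAAA. The cyclic AMP response element was searched as its short form TGACG and as the whole palindrome TGACGTCA, which holds the short form on each strand. The heat shock element was searched as GAANNTTC. Matches that overlap form a longer run of capitals. The promoters lie at chr6:49264003-49264302 on the minus strand (Tra2a), chr11:51262864-51263163 on the plus strand (Clk4), chr11:116843400-116843699 on the minus strand (Jmjd6), chr14:52305075-52305374 on the minus strand (Mettl3) and chr19:8756853-8757152 on the plus strand (Nxf1, the upstream of its 2 entries).
Tra2a: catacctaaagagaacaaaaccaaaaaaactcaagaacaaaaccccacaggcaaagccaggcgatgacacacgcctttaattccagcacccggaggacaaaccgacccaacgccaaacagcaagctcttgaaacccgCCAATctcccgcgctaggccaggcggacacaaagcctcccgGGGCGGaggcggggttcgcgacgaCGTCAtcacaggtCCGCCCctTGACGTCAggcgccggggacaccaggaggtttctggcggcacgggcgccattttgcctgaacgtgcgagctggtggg
Clk4: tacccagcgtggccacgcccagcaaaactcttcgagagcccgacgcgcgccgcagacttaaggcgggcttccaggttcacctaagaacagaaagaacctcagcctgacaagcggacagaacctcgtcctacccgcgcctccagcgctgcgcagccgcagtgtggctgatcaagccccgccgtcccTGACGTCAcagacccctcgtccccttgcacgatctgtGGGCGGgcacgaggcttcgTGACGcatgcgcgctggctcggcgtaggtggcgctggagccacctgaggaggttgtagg
Jmjd6: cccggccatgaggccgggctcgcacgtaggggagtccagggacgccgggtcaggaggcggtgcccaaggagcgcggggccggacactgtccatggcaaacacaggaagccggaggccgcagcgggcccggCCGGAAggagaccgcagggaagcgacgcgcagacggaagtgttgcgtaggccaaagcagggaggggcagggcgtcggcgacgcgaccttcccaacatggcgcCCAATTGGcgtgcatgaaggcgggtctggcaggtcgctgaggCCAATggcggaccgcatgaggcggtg
Mettl3: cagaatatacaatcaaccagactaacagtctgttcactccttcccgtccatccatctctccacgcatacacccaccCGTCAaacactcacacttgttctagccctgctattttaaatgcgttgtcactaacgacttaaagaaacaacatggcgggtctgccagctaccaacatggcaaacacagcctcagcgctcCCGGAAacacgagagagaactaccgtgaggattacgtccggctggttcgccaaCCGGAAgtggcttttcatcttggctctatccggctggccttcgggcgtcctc
Nxf1: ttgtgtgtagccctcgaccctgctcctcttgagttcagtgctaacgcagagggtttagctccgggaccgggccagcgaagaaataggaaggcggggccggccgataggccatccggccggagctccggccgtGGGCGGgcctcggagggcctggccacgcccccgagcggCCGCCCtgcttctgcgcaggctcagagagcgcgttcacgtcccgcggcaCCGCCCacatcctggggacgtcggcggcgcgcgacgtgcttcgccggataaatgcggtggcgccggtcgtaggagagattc

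TGACGTCA stood in the promoters of Tra2a and Clk4 and in 1.79% of 32851 mouse promoters of the same length. TGACG stood in those of Tra2a, Tra2b, Srsf5, Clk4 and Mettl3 (20.8% of all promoters), and CCGGAA in those of Srsf5, Srsf7, Jmjd6 and Mettl3 (14.9%). GGGCGG stood in those of Tra2a, Tra2b, Srsf5, Srsf7, Clk4 and Nxf1 (35.7%), CCAAT in those of Tra2a and Jmjd6 (37.4%), GAANNTTC in that of Tra2b (7.86%), and TATAAA in none of the 8 (13.6%). These matches describe the letters of the window, and binding was not measured. The median share of G and C was 62.7% in the 9 entries of these genes and 52.7% in all promoters. The motif shares were not adjusted for it.

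**Figure D1:**
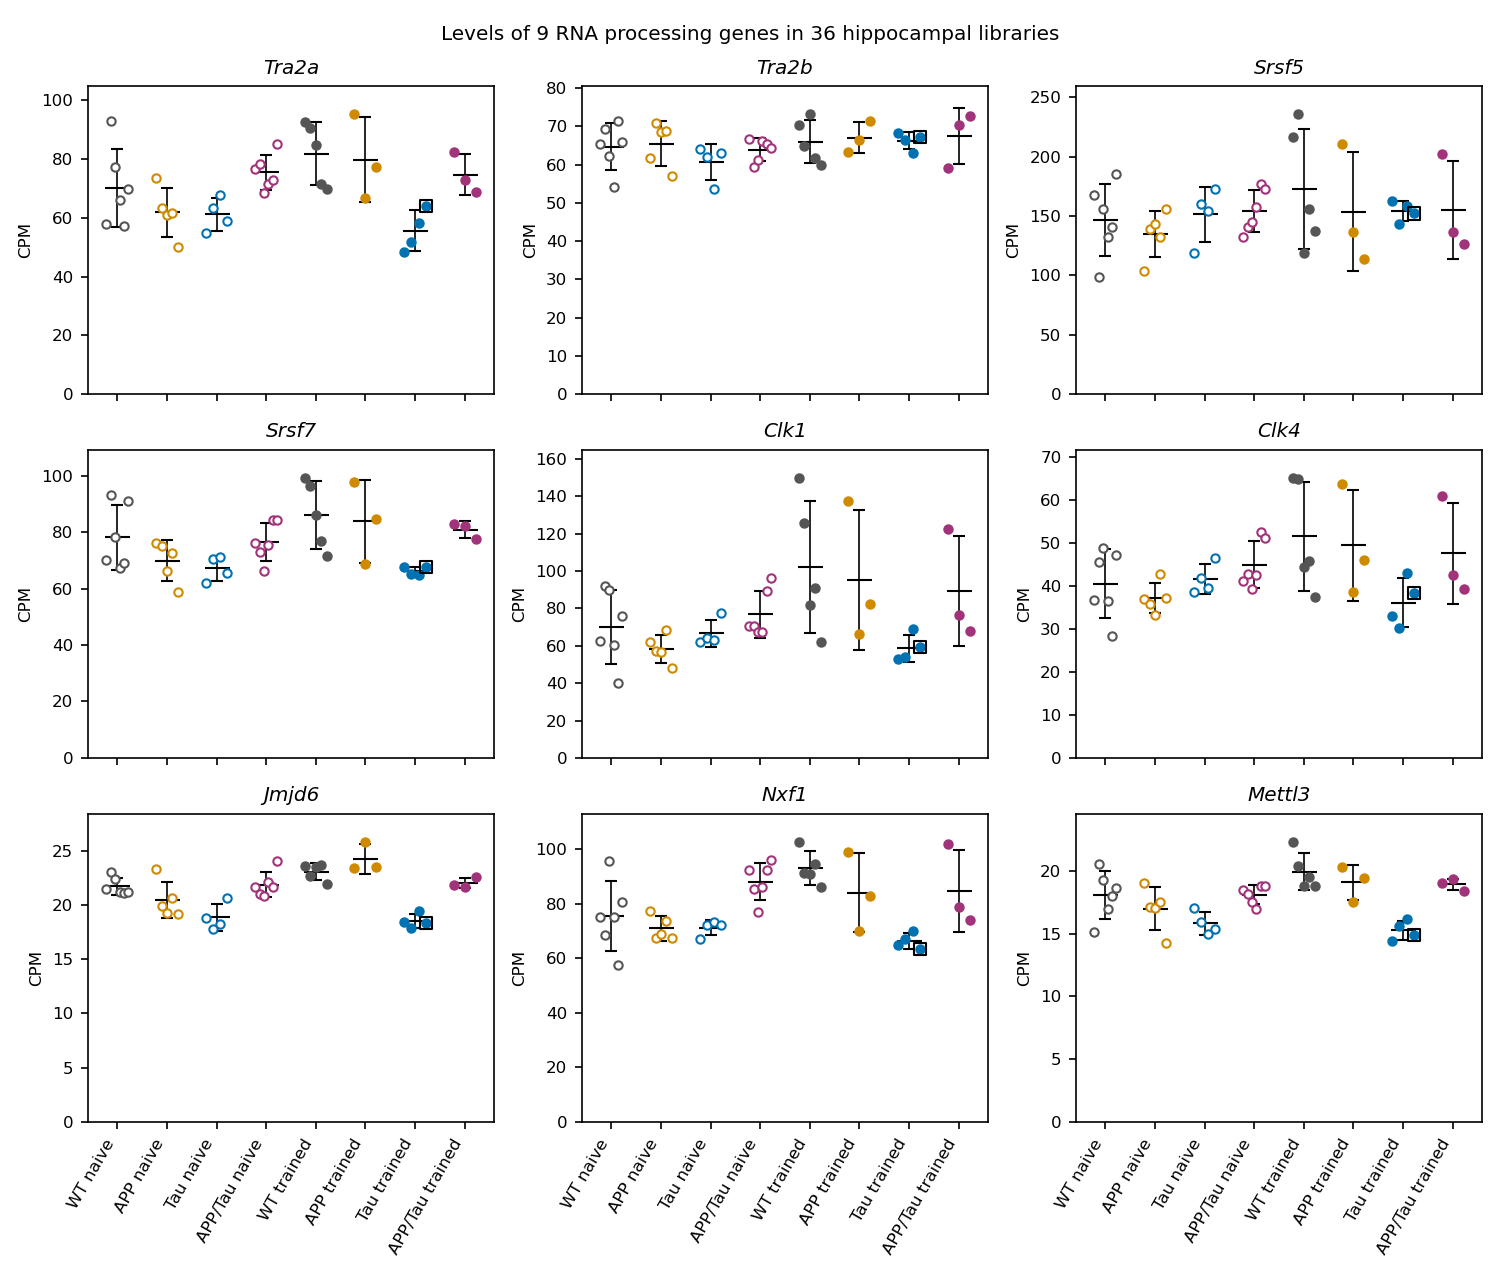
Level of each gene in CPM (y axis, from 0) in every library of the 8 groups (x axis); open points are naive and filled points trained, and black lines give the mean and SD between libraries. A black square marks the library labelled Tau trained replicate 4. For Tra2a, Srsf7, Jmjd6, Nxf1 and Mettl3 the 4 trained Tau libraries lie below each of the 5 trained WT libraries, whereas Tra2b and Srsf5 overlap.

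Tra2a and Tra2b encode the mouse homologues of fly Transformer-2, which bind GAA-rich exonic enhancers and activate exon inclusion. Tra2a stood at 48.3, 51.8, 58.1 and 64.1 CPM in the trained Tau libraries, where 64.1 belongs to the library labelled Tau trained replicate 4. In the trained WT libraries it stood at 92.7, 90.5, 84.9, 71.6 and 69.7 CPM, in the trained APP libraries at 95.4, 66.8 and 77.2, and in the trained APP/Tau libraries at 82.4, 72.8 and 68.8. The trained Tau libraries were the lowest of the trained libraries without overlap. The log2 change from trained WT was −0.56 (standard error, SE, 0.12), and −0.63 (SE 0.14) without the library labelled Tau trained replicate 4. Its paralogue Tra2b stood at 68.3, 66.4, 63.1 and 67.3 CPM in trained Tau and at 70.2, 64.8, 73.2, 61.8 and 59.9 CPM in trained WT libraries, a log2 change of 0.0065 (SE 0.076), and of 0.0022 (SE 0.084) without that library. Over the 36 libraries it ranged from 53.6 to 73.2 CPM, the lowest ratio of highest to lowest library among the 9 genes (1.37), and group means lay between 60.7 ± 4.78 (SD, n = 4, naive Tau) and 67.4 ± 7.36 CPM (n = 3, trained APP/Tau). Since these are bulk samples, fewer cells of a type and less RNA per cell cannot be told apart here or below.

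Srsf5 and Srsf7 encode SR proteins, the second of which also links splicing to export through NXF1. Srsf7 stood at 67.5, 65.1, 64.8 and 67.5 CPM in trained Tau libraries and at 99.2, 96.3, 86.0, 76.7 and 71.4 CPM in trained WT libraries. The trained Tau values (66.3 ± 1.47, SD, n = 4, and 65.8 ± 1.46, n = 3, without the library labelled Tau trained replicate 4) lay below a wider trained WT group (85.9 ± 12.0, n = 5). The log2 change was −0.37 (SE 0.10), and −0.38 (SE 0.12) without that library. Srsf5 stood at 162, 143, 158 and 152 CPM in trained Tau and at 216, 236, 119, 156 and 137 CPM in trained WT libraries, so the groups overlapped on both sides. The log2 change was −0.17 (SE 0.19), and −0.16 (SE 0.21) without that library. The 4 highest Srsf5 values of the series, 203 to 236 CPM, lay in WT trained replicates 1 and 2, APP trained replicate 1 and APP/Tau trained replicate 1.

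Clk1 and Clk4 encode dual-specificity kinases of SR proteins. The highest of the 36 libraries was 3.73 times the lowest for Clk1, the widest ratio of the 9 genes, against 2.40 for Srsf5 and 2.29 for Clk4. Clk1 stood at 53.1, 53.9, 68.8 and 59.2 CPM in trained Tau libraries and at 149.9, 126, 82.0, 91.2 and 61.8 CPM in trained WT libraries. Trained WT replicates 1 and 2 were high and replicate 5 lay among the trained Tau values, so the groups overlapped. The log2 change was the largest of the 9 at −0.80, with the largest SE, 0.24, and −0.80 (SE 0.26) without the library labelled Tau trained replicate 4. Trained APP libraries showed the same spread, at 138, 66.3 and 82.3 CPM, and so did trained APP/Tau libraries, at 123, 76.7 and 68.1 CPM. Clk4 stood at 32.9, 30.2, 43.0 and 38.3 CPM in trained Tau libraries and at 65.1, 64.9, 44.3, 45.8 and 37.4 CPM in trained WT libraries, with overlap. Its log2 change was −0.51 (SE 0.17), and −0.54 (SE 0.19) without that library. Clk1 and Clk4 followed each other more closely than any other 2 of the genes, with a Pearson r of 0.96 over 36 libraries and of 0.95 after group means were removed.

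Jmjd6 encodes a JmjC-domain oxygenase and was the least variable within groups. It stood at 18.4, 17.9, 19.4 and 18.3 CPM in trained Tau libraries and at 23.6, 22.7, 23.5, 23.7 and 21.9 CPM in trained WT libraries. It stood at 23.4, 25.8 and 23.5 CPM in trained APP and at 21.9, 21.6 and 22.6 CPM in trained APP/Tau libraries. The highest trained Tau library thus lay below the lowest of the other trained libraries, and the groups did not overlap. The log2 change from trained WT was −0.32 (SE 0.057) with all libraries and −0.31 (SE 0.062) without the library labelled Tau trained replicate 4.

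Nxf1 encodes the main mRNA export receptor. It stood at 64.7, 67.1, 70.1 and 63.6 CPM in trained Tau libraries and at 103, 91.1, 90.9, 94.6 and 86.2 CPM in trained WT libraries. Trained APP libraries stood at 99.0, 70.1 and 83.0 CPM and trained APP/Tau libraries at 102, 78.7 and 73.9 CPM, of which trained APP replicate 2 came closest to the trained Tau values. The log2 change from trained WT was −0.49 (SE 0.10), and −0.47 (SE 0.11) without the library labelled Tau trained replicate 4. Mettl3 encodes the catalytic subunit of the writer of N6-methyladenosine in mRNA. It stood at 14.5, 15.7, 16.1 and 14.9 CPM in trained Tau and at 22.3, 20.4, 18.8, 19.6 and 18.8 CPM in trained WT libraries, without overlap. The log2 change was −0.38 (SE 0.076), and −0.37 (SE 0.085) without that library.

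In the comparison that chose the genes, 8 of the 9 lay below 0 with and without the library labelled Tau trained replicate 4, and the median log2 change was −0.38 both times, against 5.23e-05 over all genes tested. Tra2a, Jmjd6, Nxf1 and Mettl3 were called by edgeR's quasi-likelihood test at an adjusted p under 0.05, where 0.205% of all genes were called lower and 0.0985% higher. These were 52 genes lower and 25 higher, and without the library labelled Tau trained replicate 4 15 lower and 17 higher. In Tra2a, Srsf7, Jmjd6, Nxf1 and Mettl3 each trained Tau library lay below each trained WT library, as in 4.04% of all genes, and without the library labelled Tau trained replicate 4 the same 5 genes did so, as in 5.69%. In the same 5 genes each trained Tau library lay below all 11 other trained libraries, as in 0.886% of all genes. The choice of the genes fixes these counts, and nothing is read from them. The number of the 9 genes called moved with single libraries. It was 0 without WT trained replicate 1 or Tau trained replicate 1, 1 without Tau trained replicate 2, Tau trained replicate 3 or WT trained replicate 2, 2 without the library labelled Tau trained replicate 4 (Tra2a and Jmjd6), 3 without WT trained replicate 3 or 4, and 6 without WT trained replicate 5.

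Order of the group means differed between the genes, but trained Tau held the lowest mean for 6 of them (Tra2a, Srsf7, Clk4, Jmjd6, Nxf1 and Mettl3), and trained WT the highest for 7 (all but Tra2b and Jmjd6). Of these 6, only Tra2a had its lowest single library in trained Tau. The lowest was WT naive replicate 5 for Clk4 (28.4 CPM) and Nxf1 (57.4 CPM). It was APP naive replicate 5 for Srsf7 (58.7 CPM) and Mettl3 (14.2 CPM), and Tau naive replicate 2 for Jmjd6 (17.8 CPM). Jmjd6 ran from 18.5 ± 0.665 CPM (SD, n = 4) in trained Tau through 18.9 ± 1.24 (n = 4) in naive Tau, 20.5 ± 1.69 (n = 5) in naive APP, 21.7 ± 0.784 (n = 6) in naive WT, 21.9 ± 1.16 (n = 6) in naive APP/Tau, 22.03 ± 0.50 (n = 3) in trained APP/Tau and 23.1 ± 0.757 (n = 5) in trained WT to 24.2 ± 1.37 (n = 3) in trained APP. Without the library labelled Tau trained replicate 4 trained Tau stood at 18.6 ± 0.802 CPM (n = 3). Mettl3 ran from 15.3 ± 0.752 CPM (n = 4, and 15.4 ± 0.866, n = 3, without that library) in trained Tau and 15.8 ± 0.886 (n = 4) in naive Tau to 19.96 ± 1.48 (n = 5) in trained WT. For each of the 9 genes, all 7 steps between neighbouring groups in that order were smaller than the sum of their SDs, also without the library labelled Tau trained replicate 4, which left the lowest and highest group of each gene as they were. Per length, which allows genes to be compared, the median over libraries ran from 8.95 CPM per kb of exon for Mettl3, 12.9 for Jmjd6, 18.5 for Tra2b, 18.6 for Nxf1 and 20.5 for Clk4 to 28.7 for Srsf7, 38.1 for Clk1, 38.4 for Tra2a and 89.6 for Srsf5.

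Naive Tau mice, none of whose libraries chose the genes, showed smaller differences, none of which passed. Of the 9 genes, 7 lay below 0 against naive WT, with a median of −0.092, against −0.00076 over all genes. Jmjd6 stood at 18.8, 17.8, 18.3 and 20.6 CPM in naive Tau libraries and at 21.1 CPM or more (median 21.3) in the 6 naive WT libraries, so all 4 lay below all 6, as in 0.792% of all genes. Its log2 change was −0.20 (SE 0.055, 95% interval −0.31 to −0.092), the 51st smallest p of 25382, but it did not pass (edgeR's quasi-likelihood test, adjusted p = 0.375). Mettl3 (−0.19, SE 0.073, adjusted p = 0.448 in edgeR's test) and Srsf7 (−0.22, SE 0.10, adjusted p = 0.518 in the same test) also missed the threshold, and their groups overlapped. These 3 genes had an unadjusted p under 0.05, where 4.44% of all genes did so in the lower direction. None of the 9 passed in edgeR or DESeq2, where edgeR called 7 genes of all tested (0.0276%), all higher. The widest interval was that of Clk1 (−0.074, from −0.53 to 0.38), followed by those of Srsf5 (0.047, from −0.33 to 0.42) and Clk4 (0.038, from −0.29 to 0.36).

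**Figure D2:**
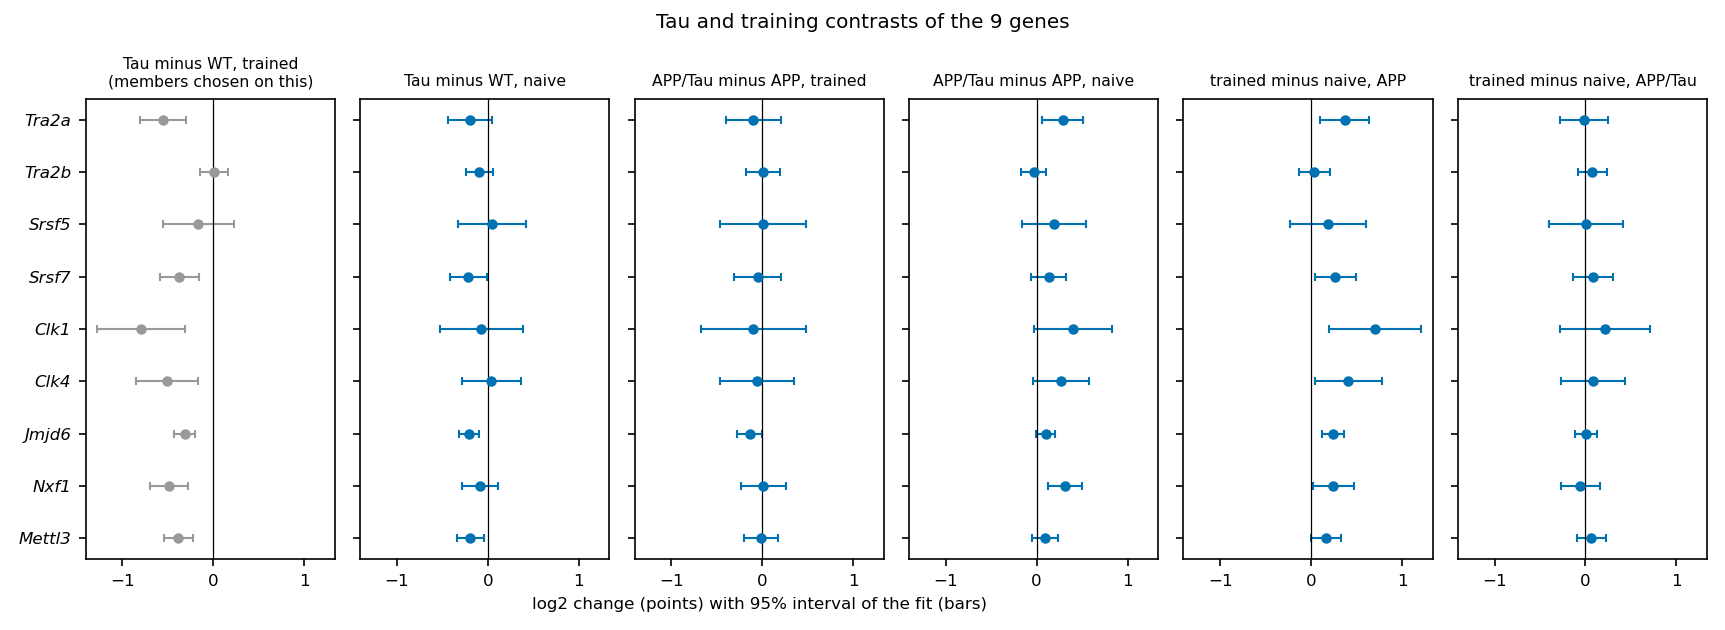
Log2 change of each gene (x axis) in 6 comparisons, with the 95% interval of the fit as bars. The grey panel holds the comparison that chose the genes, and the blue panels hold comparisons that share no library with it, in which no gene passed the adjusted threshold; in the panel of training in APP mice all 9 points lie above 0.

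The Tau transgene on an APP background gave small values in trained mice. Trained APP/Tau and trained APP libraries differed by −0.14 to 0.013 over the 9 genes (median −0.051, against −0.012 over all genes), and none passed (lowest adjusted p = 0.715 in edgeR's test, 0 with an unadjusted p under 0.05 against 6.93% of all genes, and 0 in DESeq2). The lower bound of the 95% interval was −0.28 for Jmjd6, −0.24 for Nxf1, −0.20 for Mettl3, −0.40 for Tra2a, −0.31 for Srsf7, −0.67 for Clk1, −0.47 for Clk4, −0.46 for Srsf5 and −0.18 for Tra2b. The difference between this comparison and that of trained Tau with trained WT was not tested. Jmjd6 lay lower in all 3 trained APP/Tau libraries (21.9, 21.6 and 22.6 CPM) than in all 3 trained APP libraries (23.4, 25.8 and 23.5), as were 3.85% of all genes. edgeR called 1 gene of all tested here (0.00394%).

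In naive mice APP/Tau libraries lay above APP libraries for 8 of the 9 genes, with a median of 0.19, against 0.0062 over all genes. Nxf1 stood at 77.0 to 96.0 CPM (median 89.1) in the 6 naive APP/Tau libraries and at 77.5, 67.5, 68.9, 73.6 and 67.4 CPM in the naive APP libraries, which overlapped by 1 library on each side. Its log2 change was 0.31 (SE 0.092), and that of Tra2a 0.29 (SE 0.11). Neither passed (adjusted p = 0.455 and 0.491 in edgeR's test), and with an unadjusted p under 0.05 these 2 genes were the only ones of the 9, where 5.86% of all genes were higher at that level. None of the 9 passed in DESeq2, and edgeR called 7 genes of all tested (0.0276%). Against naive WT, naive APP libraries lay below 0 for 8 genes (−0.26 to 0.016) and naive APP/Tau libraries above 0 for 7 (−0.030 to 0.22), and 0 genes passed in either comparison in edgeR or DESeq2. The unadjusted p was under 0.05 for 0 of the 9 in naive APP (3.68% of all genes) and for Nxf1 (0.22, SE 0.087) in naive APP/Tau (3.82% of all genes, higher), where edgeR called 0.0355% and 0.067% of all genes.

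Training in APP mice gave the largest median among the comparisons that did not choose the genes, and no gene passed. All 9 genes lay above 0 in trained against naive libraries, with a median of 0.24, against 0.015 over all genes. Jmjd6 stood at 23.3, 19.9, 19.3, 20.6 and 19.2 CPM in naive and at 23.4, 25.8 and 23.5 CPM in trained APP libraries, all 3 above all 5 (as in 1.36% of all genes). Its log2 change was 0.24 (SE 0.061, interval 0.12 to 0.37), the 7th smallest p of 25382, and it did not pass after adjustment (adjusted p = 0.883 in edgeR's test). Clk1 had the largest value, 0.71 (SE 0.25), which was 0.35 without APP trained replicate 1, and Srsf5 went from 0.19 to −0.11 without that library. An unadjusted p under 0.05 was found for 7 of the 9 (all but Tra2b and Srsf5), where 3.42% of all genes were higher at that level. These 7 genes move together between libraries and do not count as 7 separate results. In edgeR 0 genes of the whole table (0%) passed in this comparison, and none of the 9 in DESeq2.

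In WT mice, whose trained libraries were part of the choice, the 9 genes lay 0.028 to 0.54 above naive (median 0.22), with Clk1 at 0.54 (SE 0.21), Clk4 at 0.34 (SE 0.15) and Nxf1 at 0.30 (SE 0.091). In Tau mice they lay at −0.21 to 0.13 (median −0.050), with Nxf1 at −0.10 (SE 0.11) and Jmjd6 at −0.028 (SE 0.060). Without the library labelled Tau trained replicate 4 they lay at −0.23 to 0.12 (median −0.036), with Nxf1 at −0.079 (SE 0.12) and Jmjd6 at −0.021 (SE 0.065). The difference between these training changes was −0.72 (SE 0.32) for Clk1, −0.55 (SE 0.23) for Clk4, −0.40 (SE 0.14) for Nxf1 and −0.36 (SE 0.17) for Tra2a, described without a test because its libraries chose the genes. Without that library it was −0.73 (SE 0.35), −0.58 (SE 0.25), −0.39 (SE 0.15) and −0.44 (SE 0.18). In the count table trained Tau libraries are numbers 3, 4, 8 and 9 and naive Tau libraries 11, 33, 34 and 36. Under settings that dropped no single library, the change in Tau mice was −0.60 to −0.18 for Clk1 and −0.41 to −0.20 for Clk4. It was −0.32 to −0.14 for Tra2a, −0.23 to −0.10 for Nxf1, −0.043 to −0.027 for Jmjd6 and 0.11 to 0.14 for Tra2b. The difference from WT was −1.05 to −0.72 for Clk1. What moved these values was not tested. In APP/Tau mice the training change ran from −0.056 to 0.21 (median 0.065, against 0.0034 over all genes), and 0 of the 9 passed in edgeR or DESeq2, 0 with an unadjusted p under 0.05, where 1.72% of all genes were higher at that level. For Jmjd6 its interval was −0.11 to 0.13. The trained APP and trained APP/Tau comparisons with trained WT share its 5 libraries with the comparison that chose the genes, and there the values ran from −0.17 to 0.070 and from −0.19 to 0.031.

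**Figure D3:**
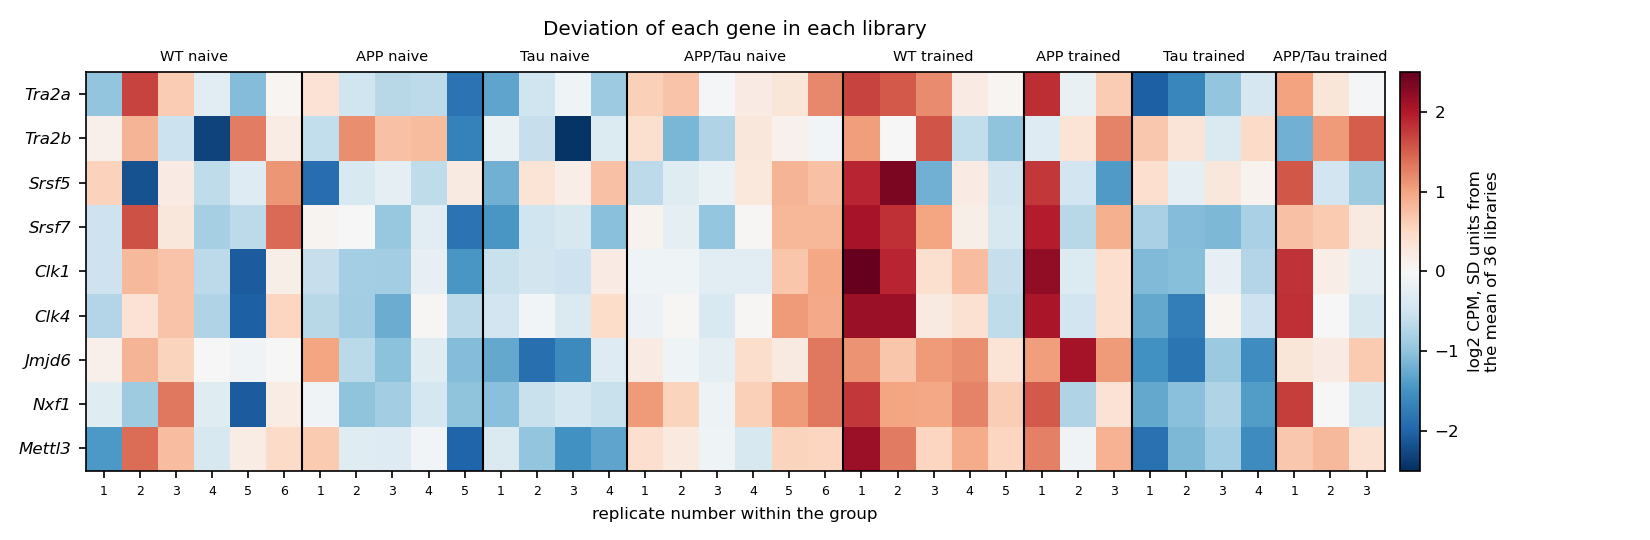
Deviation of log2 CPM from the mean over 36 libraries, in SD units (colour), for each gene (rows) and library (columns, by group and replicate number). Trained Tau columns are mostly blue for all genes but Tra2b and Srsf5, and WT trained replicates 1 and 2, APP trained replicate 1 and APP/Tau trained replicate 1 are red for most genes.

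Most of the genes varied together from library to library. The mean Pearson r of a gene's log2 CPM with the other 8, over 36 libraries, lay between 0.50 and 0.66 for Tra2a, Srsf7, Clk1, Clk4, Jmjd6, Nxf1 and Mettl3. It was 0.23 for Srsf5 and 0.07 for Tra2b. Jmjd6 shared its pattern with the others mostly between groups. Its r with Tra2a was 0.71 over all libraries and 0.33 after group means were removed (0.35 without the library labelled Tau trained replicate 4), whereas the r of Tra2a with Srsf7 was 0.87 and 0.81 (0.82 without it). All values share library preparation and scaling, and no p is given. Averaged over the 9 genes in SD units, group means ran from −0.82 ± 0.24 (SD, n = 4, and −0.85 ± 0.28, n = 3, without that library) in trained Tau, −0.65 ± 0.24 (n = 4) in naive Tau and −0.53 ± 0.44 (n = 5) in naive APP to 0.64 ± 0.78 (n = 3) in trained APP and 0.84 ± 0.79 (n = 5) in trained WT. The highest libraries were WT trained replicate 1 (1.82), APP trained replicate 1 (1.48) and WT trained replicate 2 (1.41). The lowest was APP naive replicate 5 (−1.26), outside the trained Tau group. The count table numbers its libraries, and the highest bear numbers 2, 6 and 5. In trained WT the value fell with that number, from 1.82 (number 2) to −0.17 (number 26). Trained Tau libraries, numbers 3, 4, 8 and 9, were low (−1.05 to −0.54). Over 36 libraries r of a gene with the number ran from −0.36 (Clk1) to −0.072 (Jmjd6). The part of the number in these levels was not itself tested, but fits with the number as a covariate are among the settings described below.

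The close relatives of the 9 genes are described next and were named after their values were seen. In trained Tau against trained WT, the remaining CLK kinases lay lower, Clk2 at −0.42 (SE 0.14) and Clk3 at −0.35 (SE 0.081), each with all trained Tau libraries below all trained WT libraries, as in 4.04% of all genes. So did Srpk1, a cytoplasmic SR protein kinase, at −0.27 (SE 0.074), whereas its paralogue Srpk2 stood at −0.015 (SE 0.049). Srsf4 (−0.17, SE 0.044), Srsf6 (−0.31, SE 0.093), Srsf10 (−0.32, SE 0.082) and Srsf11 (−0.35, SE 0.10) also lay below without overlap. Srsf1 (−0.30, SE 0.11), Srsf2 (−0.23, SE 0.10), Srsf9 (−0.17, SE 0.074), Srsf3 (−0.13, SE 0.083) and Srsf12 (−0.041, SE 0.076) overlapped. Without the library labelled Tau trained replicate 4 Srsf1 did not overlap either. The 7 other listed subunits of the writer complex of METTL3 ran from −0.14 (Zc3h13) to 0.11 (Rbm15), 2 of them below 0, and all overlapped. Among them Mettl14, the other subunit of the methyltransferase core, stood at 0.049 (SE 0.091) and its adaptor Wtap at 0.036 (SE 0.045). The 14 listed export partners of NXF1 ran from −0.32 (Zc3h11a, SE 0.084) to 0.16 (Thoc3), with 10 below 0 and a median of −0.015. Zc3h11a and Ddx39b, a helicase of the export complex, lay below without overlap, whereas the cofactor Nxt1 stood at −0.052 (SE 0.10), its paralogue Nxt2 at 0.13 (SE 0.067) and the adaptor Alyref at −0.0050 (SE 0.066), all with overlap. Without the library labelled Tau trained replicate 4 these 2 still lay below and Nxt2 and Thoc3 lay above without overlap, and no CLK, SRPK, SR protein, Zc3h11a, Nxt or Mettl value given here moved by more than 0.0404.

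**Figure D4:**
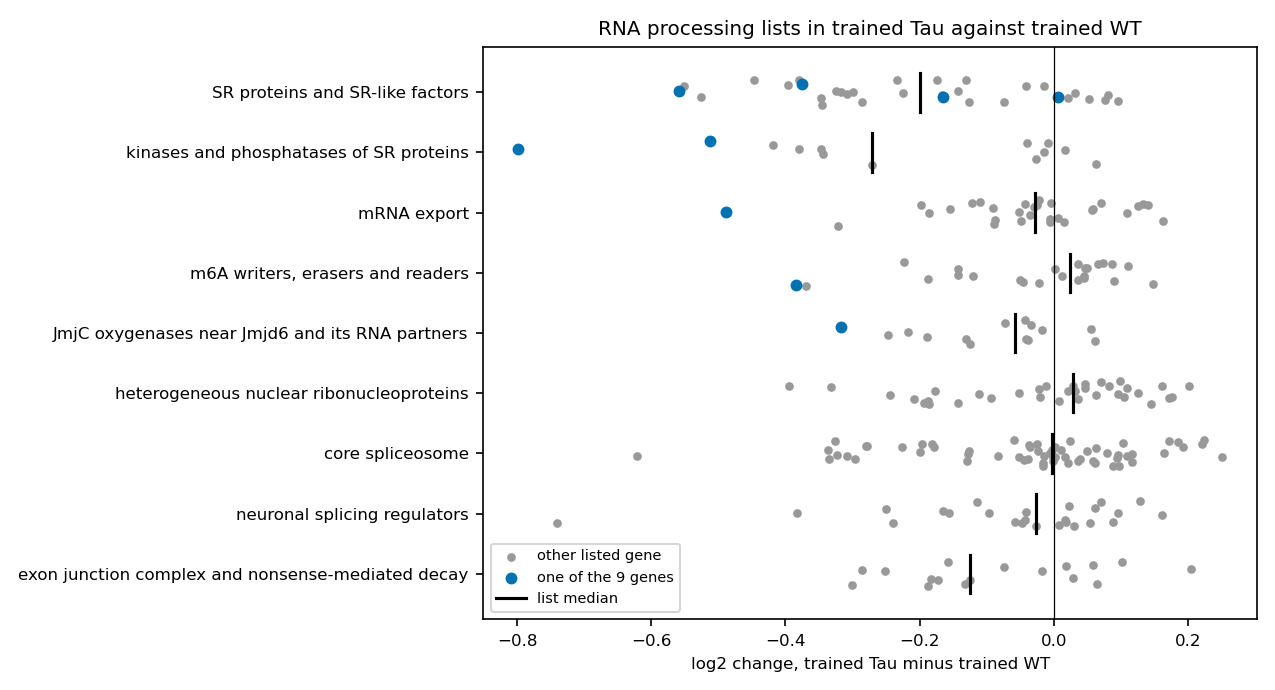
Log2 change in trained Tau against trained WT (x axis) for genes of 9 RNA processing lists (rows); grey points are other listed genes, blue points the 9 genes, and black bars list medians. In the lists of SR proteins and of their kinases and phosphatases 25 of 32 and 11 of 13 points lie left of 0, the 9 genes included; the kinase median moves from −0.27 to −0.040 without them.

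Across 9 lists of RNA processing genes, chosen with results of these data known, 237 genes other than the 9 were tested. In trained Tau against trained WT, 138 of the 237 lay below 0, as did 49.99% of all genes, with a median of −0.024. Of the 237, 4 passed in the lower direction (1.69%, against 0.205% of all genes) and 0 in the higher (0.0985% of all genes). These 4 were Acin1, an SR-like component of the exon junction machinery, at −0.38 (SE 0.079), Clk3, Hnrnph1, an hnRNP that binds G-rich RNA, at −0.33 (SE 0.077), and Rbm10, a splicing regulator, at −0.28 (SE 0.051). Without the library labelled Tau trained replicate 4 the values were −0.36 for Acin1, −0.33 for Clk3, −0.35 for Hnrnph1 and −0.28 for Rbm10, of which Rbm10 alone passed, and 139 of the 237 lay below 0. By list, SR proteins and SR-like factors had 25 of 32 below 0 (median −0.20), and their kinases and phosphatases 11 of 13 (median −0.27, and −0.040 without the 9 genes). The medians were −0.12 for exon junction and nonsense-mediated decay genes (11 of 17 below 0), −0.058 for JmjC oxygenases and JMJD6 partners (12 of 14), −0.027 for export genes (20 of 30), −0.026 for neuronal splicing regulators (13 of 25), −0.0032 for core spliceosome genes (33 of 61), 0.024 for writers, erasers and readers of N6-methyladenosine (10 of 24) and 0.029 for hnRNP genes (15 of 35). Without that library no list median moved by more than 0.0283, and no count below 0 by more than 3. In naive Tau 191 of the 237 lay below 0, as did 50.16% of all genes, with a median of −0.060, and 0 passed in edgeR, with an unadjusted p under 0.05 for 24 in the lower and 3 in the higher direction (4.44% and 4.87% of all genes). None of the 237 passed in edgeR in any other comparison.

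The transcript annotation of the 9 genes is described here, without a test. In GENCODE M21 (GRCm38, which is not the mm39 build of the counts and was used for transcript classes, lengths and overlaps alone) each of the 9 genes has at least 1 transcript with a retained intron and at least 1 marked for nonsense-mediated decay. Both classes occur in 14.9% of 21951 protein-coding genes, in 19.3% of 16264 tested protein-coding genes and in 38.6% of 236 other genes of the RNA processing lists. Many genes of this machinery carry such transcripts, so the choice of gene families bears on this count. The 9 genes have 5 to 15 annotated transcripts each, and the other sets were not matched to them in transcript number or level. Clk1 has 7 retained-intron transcripts among 13, Clk4 7 among 14 and Mettl3 5 among 15. The deposited counts are per gene, so the share of each transcript class was not measured. Genes annotated on the opposite strand overlap Tra2a (Gm43980), Clk4 (BC049762), Jmjd6 (Mettl23) and Mettl3 (Tox4), and whether counting used strand is not given in the sources used here, so reads of the overlaps cannot be told apart. In trained Tau against trained WT, Tox4 stood at 73.1 ± 4.50 (SD, n = 4) and 71.4 ± 4.99 CPM (n = 5), a log2 change of 0.034 (SE 0.062, and 0.027 without the library labelled Tau trained replicate 4), Mettl23 at 9.66 ± 1.09 and 10.5 ± 0.498 CPM (−0.12, SE 0.094, and −0.14 without it), and BC049762 at 0.0744 and 0.0961 CPM.

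The summed level of 14 nuclear retained noncoding RNAs was 6289 to 8024 CPM in trained Tau and 8736 to 12207 CPM in trained WT libraries, with no overlap with or without the library labelled Tau trained replicate 4 (7712 CPM). Their mean log2 CPM, which weights each RNA equally, did overlap, at 7.29 to 7.65 (to 7.61 without that library) against 7.57 to 8.05. It followed the mean of the 9 genes with r = 0.60 over 36 libraries (0.58 over the 32 libraries outside trained Tau). In that comparison 8 of the 14 lay below 0, with a median of −0.18, and of −0.34 without the library labelled Tau trained replicate 4. Meg3, an imprinted noncoding RNA, made up much of the sum and stood at 2682 ± 423 CPM (SD, n = 4) against 4584 ± 633 (n = 5), a log2 change of −0.77 (SE 0.23, and −0.80, SE 0.26, without that library) with no overlap. Its r with the mean of the 9 genes was 0.72, and 0.67 without trained Tau. Malat1 (−0.15, SE 0.39, and −0.37 without that library; r = 0.41) and Neat1 (0.16, SE 0.24, and 0.20 without it; r = 0.14) overlapped between the groups. The libraries come from a detergent lysate cleared by centrifugation, and the part that carry-over of nuclear RNA has in the levels of the 9 genes was not tested.

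**Figure D5:**
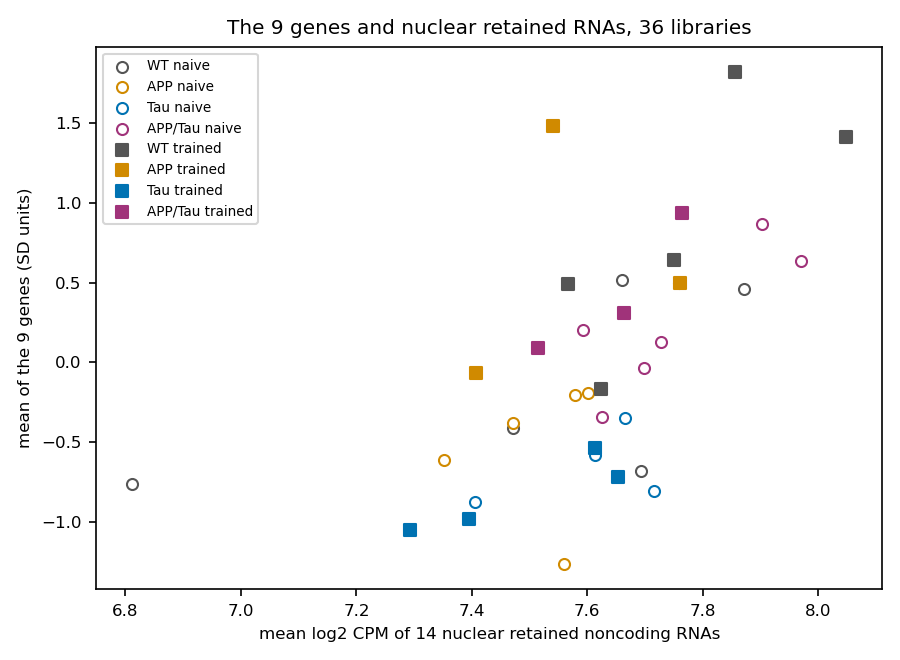
Mean of the 9 genes in SD units (y axis) against mean log2 CPM of 14 nuclear retained noncoding RNAs (x axis) for 36 libraries; circles are naive and squares trained. The 4 trained Tau squares lie low on the y axis, between −1.05 and −0.54, and the WT trained and APP trained libraries with the highest y values do not all share the highest x values.

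Other marker lists were compared in the same way. Of 78 markers of 8 cell types and neighbouring regions, 0 were at 0 in all libraries. Oligodendrocyte markers summed to 4080 to 6082 CPM in trained Tau and 3411 to 4297 in trained WT libraries, with 9 of 9 above 0 and r = −0.36 with the mean of the 9 genes. The lowest of these trained Tau sums was that of the library labelled Tau trained replicate 4, and without it the trained Tau libraries (5074 to 6082 CPM) did not overlap trained WT. On mean log2 CPM, which weights each marker equally, the groups did not overlap even with that library (7.69 to 8.29 against 7.43 to 7.64). Astrocyte markers summed to 4719 to 5247 and 4129 to 4961 CPM, microglia markers to 371 to 552 and 317 to 456, excitatory neuron markers to 6920 to 8219 and 6380 to 7337, and inhibitory neuron markers to 1045 to 1196 and 1001 to 1280, and all overlapped with and without that library. Endothelial and mural markers summed to 149 to 164 and 75.8 to 185 CPM, and choroid plexus and ependymal markers to 102 to 597 and 93.2 to 1034. Striatal and thalamic markers summed to 119 to 147 and 128 to 500 CPM. By gene, choroid plexus and ependymal markers lay below 0 in 10 of 10 (median −0.64, and −0.50 without that library). Striatal and thalamic markers did so in 8 of 10 (−0.88, and −0.87 without it). Above 0 were 11 of 12 microglia (0.35, and 0.44 without it) and 7 of 8 astrocyte markers (0.096 both times). So were 8 of 10 excitatory (0.16 both times) and 6 of 10 inhibitory markers (0.030 and 0.043). Of endothelial and mural markers 7 of 9 lay above 0 (0.10 and 0.11). Immediate early genes summed to 962 to 1140 and 999 to 1470 CPM, with 17 of 20 below 0 and Fos at 7.49 ± 4.35 CPM (SD, n = 4, and 5.50 ± 2.16, n = 3, without that library) against 15.4 ± 8.88 (n = 5). Heat and cold responsive genes summed to 4897 to 5092 CPM (to 5032 without it, then with no overlap) and 5066 to 5492 CPM, and clock genes to 1462 to 1565 (from 1525 without it) and 1522 to 1761. On mean log2 CPM clock genes did not overlap (5.66 to 5.77 against 5.78 to 6.01). Heat and cold responsive genes did (6.28 to 6.37, to 6.36 without that library, against 6.30 to 6.64). With all libraries the remaining lists of this paragraph, oligodendrocyte markers aside, also overlapped on that measure. Per1 had r = 0.61 with the mean of the 9 genes (0.60 over the 32 libraries outside trained Tau), Hspa1b 0.33 (0.29), Fos 0.27 (0.050), Rbm3 0.18 (0.39), Dbp −0.14 (−0.078) and Cirbp −0.35 (−0.23). The part of these lists in the result was not tested.

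Likeness to the mean of the 9 was ranked among 12216 genes whose mean log2 CPM reached 2. Predicted genes (symbols with Gm and a number, or ending in Rik) and the 9 themselves were left out of the ranking. The most alike were Hnrnph1 (r = 0.93 over 36 libraries, and 0.92 over the 32 outside trained Tau), Slc2a4rg-ps (0.92 and 0.91), Tnfrsf25 (0.92 and 0.91), Dok3 (0.92 and 0.91) and Rrnad1 (0.91 and 0.90). In trained Tau against trained WT, Hnrnph1 stood at 175 and 221 CPM, Tnfrsf25, a death-domain receptor, at 5.94 and 20.3 CPM, Dok3, an adaptor protein, at 3.76 and 10.8 CPM, Slc2a4rg-ps at 3.23 and 9.04 CPM and Rrnad1 at 28.8 and 39.9 CPM. Without the library labelled Tau trained replicate 4 the trained Tau means were 172.6, 5.59, 3.67, 3.01 and 28.8 CPM in the same order. In all 5 the trained Tau libraries lay below the trained WT libraries without overlap, as in 4.04% of all genes, and the choice by likeness over these same libraries leaves nothing to be read from this. The log2 changes were −1.78 (SE 0.50) for Tnfrsf25, −1.53 (SE 0.36) for Dok3 and −1.49 (SE 0.41) for Slc2a4rg-ps, and −1.87, −1.56 and −1.58 without the library labelled Tau trained replicate 4. The genes most opposed were Fam210b (r = −0.82) and Rtn4, which encodes the neurite growth inhibitor Nogo (r = −0.79).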

How the data were processed

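Poly(A) RNA of the hippocampal input fraction was sequenced from 36 libraries of 8 groups. Per the labels' protocols, each took 100 ng of RNA as input and was sequenced as 150 bp pairs, 40 M reads being the plan. The table deposited by the authors holds whole-number raw counts for 50559 gene symbols. Trimmomatic 0.39 and the build mm39 are named, per the submitters' processing notes. Which aligner, counter, strand setting and annotation served is not given in the sources used here.

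Counts were analysed as deposited in edgeR 4.0.16 (R 4.3.3). The filter filterByExpr, run by group with minimum count 10 and total 15, kept 25382 of the 41519 genes counted in any library. A single quasi-likelihood fit over all libraries, with 1 coefficient for each group, was made after TMM scaling (robust glmQLFit, then glmQLFTest). Benjamini-Hochberg adjustment ran over all genes within each of 13 contrasts, with calls at 0.05. CPM values divide the deposited counts by the TMM-scaled total, and means carry the SD between libraries. Correlations and profiles used log2 CPM with a prior count of 2. Of genes simulated with a 1.25-fold change between trained Tau and trained WT, 22% were recovered, and 72% of those with a 1.5-fold change (25044 genes). Between trained APP/Tau and trained APP these shares were 16% and 46% (25046 genes). Each gene was simulated independently, without the variation that genes here share between libraries, so recovery in these data may differ. None of the 68 library pairs within groups was identical.

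The 9 genes and the 21 lists were chosen with earlier results of these data known. Named genes are the 9, Prnp, listed RNA processing genes that passed (at most 3 a list in trained Tau), 9 nuclear, stress, clock and activity genes, and the 5 genes most like the 9 in pattern. The genes most opposed, close relatives and overlapping genes were named after their values were seen. No label ties each numbered sample to a separate mouse, and p-values then measure only the spread between these samples, which may be technical. The alternatives tried were size factors by RLE, all counted genes, DESeq2 1.42.0, only the groups compared, the sample number as a block, the library number as a covariate, leaving out each library, and, added after seeing the data, edgeR's earlier quasi-likelihood method. Promoters came from RefSeq and transcript classes from GENCODE, both on GRCm38.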

Additional observations from a re-analysis of the deposited data

Results flagged for a closer look

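Clk1 in the naive Tau group had 1 library far from the others, with 77.3 CPM in replicate 4 against 62.2 to 64.1 CPM in the other 3. The gap to the nearest library was 0.878 of the group's range. Of 54 sets of a gene and a group with 4 to 6 libraries, this was the 1 set so marked, and chance marks about 1 in 20.

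Jmjd6 differed in sign between training states when APP/Tau was compared with APP. The log2 change was 0.099 in naive and −0.136 in trained mice, and the difference between the states was not tested. Nxf1 differed in sign between genotypes when trained was compared with naive mice, with 0.303 in WT and −0.101 in Tau mice (−0.079 without the library labelled Tau trained replicate 4). This difference was not tested, because its trained libraries chose the genes.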

How the results depend on the processing

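None of the 9 genes passed in any of the 7 comparisons that share no library with the choice of the genes, under any setting run. In trained Tau against trained WT, where 77 genes and 4 of the 9 were called, 244 genes were called with the library number as a covariate, 230 on only the groups compared and 555 with DESeq2, and 54 to 100 under the remaining settings that kept all libraries. Leaving out 1 library at a time gave 3 to 360 genes and 0 to 6 of the 9, with 3 to 6 of the 9 under the other settings. When libraries were left out, the log2 changes ran from −0.63 to −0.50 for Tra2a and from −0.34 to −0.30 for Jmjd6. They ran from −0.51 to −0.45 for Nxf1 and from −0.41 to −0.34 for Mettl3, while the calls of these genes came and went. Srsf7 passed with DESeq2 or without WT trained replicate 5, and Clk1 passed under these and with the library number as a covariate. This comparison chose the genes, so these values and calls describe them and do not test them.

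Of naive Tau against naive WT, 7 genes were called, 2 on only the groups compared, 4 with the replicate block, and 3 to 9 with 1 library left out. Of naive APP/Tau against naive WT, 17 were called, 11 on only the groups compared and 14 to 20 with 1 library left out. Of trained APP/Tau against trained APP, 1 was called, 0 with no filter or on only the groups compared, 2 with RLE size factors, 3 with the earlier quasi-likelihood method, 6 with DESeq2 and 0 to 1 with 1 library left out. Of naive APP/Tau against naive APP, 7 were called, 3 with the replicate block, 13 with DESeq2 and 5 to 9 with 1 library left out. Training called 0 genes in APP and in APP/Tau mice, and 0 to 1 with 1 library left out in each. The causes were not tested. No pairing of the libraries by the sample numbers of the labels was seen. Libraries with the same number deviated together no more (mean r −0.018 over 106 pairs) than others (0.0043 over 456 pairs). Of 36 libraries, 5 correlated best with their own number. A weak pairing could go unseen in these values. With the block, 100 genes and 4 of the 9 were called in trained Tau against trained WT. No called value changed sign. The smallest count of any of the 9 genes was 1011, and counting error was not separated from the spread between libraries.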
